A study of Mus musculus with 17 samples.

Results

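The signal of RNA polymerase II (Pol II) at promoters was set against that over gene bodies, gene by gene, in control primary mouse embryonic fibroblasts. Of 36172 genes in the deposited table, 8688 carried enough signal with both Pol II antibodies to be classed. Ratios were taken after adding 10 signal units to each value. Of the classed genes, 7614 held at least 2-fold more signal per base at the promoter than over the gene body with both antibodies (87.6%) and are called promoter-loaded here. The opposite pattern, at least 2-fold more over the body than at the promoter with both antibodies, was found for 107 genes (1.23%), called body-rich here. The remaining 967 genes were in neither class.

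Pol II that has started a transcript commonly stops a short way into the gene, held there by pausing factors until the kinase P-TEFb releases it into the gene body. Serine 5 of the repeats in the tail of the largest subunit is phosphorylated around initiation, so the Ser5P form is known to be abundant near starts. The signal at a promoter relative to that over the body therefore describes where polymerase sits on a gene, with promoter-rich genes being the usual state in mammalian cells.

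The cells were C57Bl/6 embryonic fibroblasts infected with a lentivirus carrying a non-targeting hairpin (SCR), kept in puromycin and fixed at day 3. Chromatin of 3 lines was pooled, so line-to-line variation cannot be seen. It was precipitated with antibody N-20 against the RPB1 subunit (total Pol II) or with an antibody against Ser5P, giving 1 library each. The series has 17 samples and was made to compare SCR with depletion of RPAP1, a Pol II-associated protein. Since each antibody has 1 SCR library, all values are descriptions without replicates and no test is given.

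The promoter values held about 129638 read equivalents with total Pol II and 290756 with Ser5P, and the gene bodies 3586318 and 3821721. A read at a promoter was worth 28.85 signal units, so a classed promoter rested on few reads, with medians of 9.0 and 18.4 among measured genes. Smell receptor genes, silent in fibroblasts, averaged 8.0 at the promoter and 7.08 over the body for total Pol II and, for Ser5P, 6.7 and 5.76. Of 14 fibroblast markers, 12 reached a signal of 100 with total Pol II and 11 with Ser5P, while 0 of 12 epithelial and 0 of 9 skeletal muscle markers did so. The markers of other cell types that reached 100 were Kdr (endothelial), Cd68 and Lyz2 (blood), Tubb3 (neuronal) and Klf2 (pluripotency).

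To show what stands before genes of each kind, 100 bases upstream of the annotated start are given for genes with 1 RefSeq start on GRCm38.p6. All such genes among the 12 highest promoter over body ratios come first by rank, then all among the 12 lowest, with predicted gene names left out of the ranking. Sequences run 5′ to 3′ in the direction of the gene, and capitals mark the TATA motif TATAAA, the Sp1 motif GGGCGG or the NF-Y motif CCAAT, on either strand. Promoter-loaded genes:
Hn1, chr11:115514394-115514493, minus strand: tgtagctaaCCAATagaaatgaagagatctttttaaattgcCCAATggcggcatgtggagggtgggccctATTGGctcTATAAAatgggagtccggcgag
Polr2a, chr11:69758634-69758733, minus strand: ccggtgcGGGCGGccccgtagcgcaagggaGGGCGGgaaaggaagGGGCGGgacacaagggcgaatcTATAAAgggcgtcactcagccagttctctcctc
Trpm8, chr1:88306635-88306734, plus strand: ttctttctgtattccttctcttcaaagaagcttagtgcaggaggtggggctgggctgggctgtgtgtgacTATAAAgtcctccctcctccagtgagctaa
Mttp, chr3:138143419-138143518, minus strand: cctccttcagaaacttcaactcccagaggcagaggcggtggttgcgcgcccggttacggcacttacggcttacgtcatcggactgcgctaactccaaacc
Ddrgk1, chr2:130664646-130664745, minus strand: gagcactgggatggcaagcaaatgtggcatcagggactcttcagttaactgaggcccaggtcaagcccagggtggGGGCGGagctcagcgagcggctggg
Taf13, chr3:108571599-108571698, plus strand: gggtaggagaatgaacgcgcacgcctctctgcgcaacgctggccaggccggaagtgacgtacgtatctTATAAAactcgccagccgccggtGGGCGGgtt
Nhej1, chr1:75125227-75125326, minus strand: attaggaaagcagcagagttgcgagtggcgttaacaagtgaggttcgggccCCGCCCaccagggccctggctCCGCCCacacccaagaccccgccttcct
Kiss1r, chr10:79916871-79916970, plus strand: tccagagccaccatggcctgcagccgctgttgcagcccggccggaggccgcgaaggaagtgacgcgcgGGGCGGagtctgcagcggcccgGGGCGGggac
Fdxr, chr11:115276970-115277069, minus strand: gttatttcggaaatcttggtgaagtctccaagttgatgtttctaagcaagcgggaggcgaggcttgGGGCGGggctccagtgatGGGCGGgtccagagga
Body-rich genes:
Masp2, chr4:148602444-148602543, plus strand: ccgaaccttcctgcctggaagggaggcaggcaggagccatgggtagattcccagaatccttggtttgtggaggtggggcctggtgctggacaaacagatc
Car9, chr4:43506926-43507025, plus strand: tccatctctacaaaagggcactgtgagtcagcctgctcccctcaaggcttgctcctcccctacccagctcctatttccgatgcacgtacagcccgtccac
Capn12, chr7:28881556-28881655, plus strand: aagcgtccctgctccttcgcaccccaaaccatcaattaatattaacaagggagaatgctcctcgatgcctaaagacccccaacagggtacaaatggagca
Tm4sf1, chr3:57301989-57302088, minus strand: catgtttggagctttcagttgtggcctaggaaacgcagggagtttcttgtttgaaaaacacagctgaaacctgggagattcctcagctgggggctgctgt
Rbbp6, chr7:122970464-122970563, plus strand: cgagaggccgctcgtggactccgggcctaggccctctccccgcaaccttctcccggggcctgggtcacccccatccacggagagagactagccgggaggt
A pair chosen from the genes with high signal in both regions:
Cyr61, chr3:145649986-145650085, minus strand: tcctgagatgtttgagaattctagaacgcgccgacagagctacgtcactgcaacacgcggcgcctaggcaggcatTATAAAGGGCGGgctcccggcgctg
Acta2, chr19:34255374-34255473, minus strand: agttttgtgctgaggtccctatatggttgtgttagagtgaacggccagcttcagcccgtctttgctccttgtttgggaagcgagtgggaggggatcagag

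Among the 12 genes with the highest ratios, 9 had 1 start in the promoter table, and 4 of them, Polr2a, Hn1, Trpm8 and Taf13, held TATAAA starting 45 to 20 bases before the start. Of all 5739 measured genes with 1 start, 1.12% did. Among the 12 with the lowest ratios, 5 had 1 start. Of these, 0 held TATAAA there or GGGCGG anywhere in the table's window, and 4 had few CpG pairs. Of the 9 highest, 8 held GGGCGG and 1 had few CpG pairs. Over all measured genes with 1 start these shares were 68.9% and 12.4%. These counts describe the ranked genes only.

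Promoter excess was common among the genes measured. A gene was measured with an antibody when the larger of its promoter and body values was at least 100 and its RefSeq length at least 2000 bases. With total Pol II, 8889 genes were measured, and the promoter was at least 2-fold above the body in 88.1% of them. With Ser5P, 10969 were measured and 92% passed the same fold. The body was at least 2-fold above the promoter in 2.16% with total Pol II and 2.24% with Ser5P. Both together left 87.6% of the 8688 genes promoter-loaded, 58.9% past 4-fold (5115 genes) and 1.23% body-rich. Genes past 8-fold with both antibodies numbered 1462.

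The typical gene had a promoter signal of 262.5 and a body signal of 48.13 for total Pol II and, for Ser5P, 649.1 and 63.78. The log2 ratio, taken after adding 10 to each value, had a median of 2.23 with total Pol II (quartiles 1.58 to 2.80) and 2.94 with Ser5P (2.18 to 3.58) over the genes measured with each. Over the 8688 genes measured with both, the medians were 3.08 with Ser5P and 2.23 with total Pol II, and the Ser5P ratio was the larger in 7576 genes (87.2%). The median difference, Ser5P minus total Pol II, was 0.83. Across these genes the 2 ratios had a Spearman rho of 0.73 and a Pearson r of 0.82, a description across genes that share 1 chromatin pool. Only 8 genes were promoter-loaded with either antibody and body-rich with the other.

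**Figure D1:**
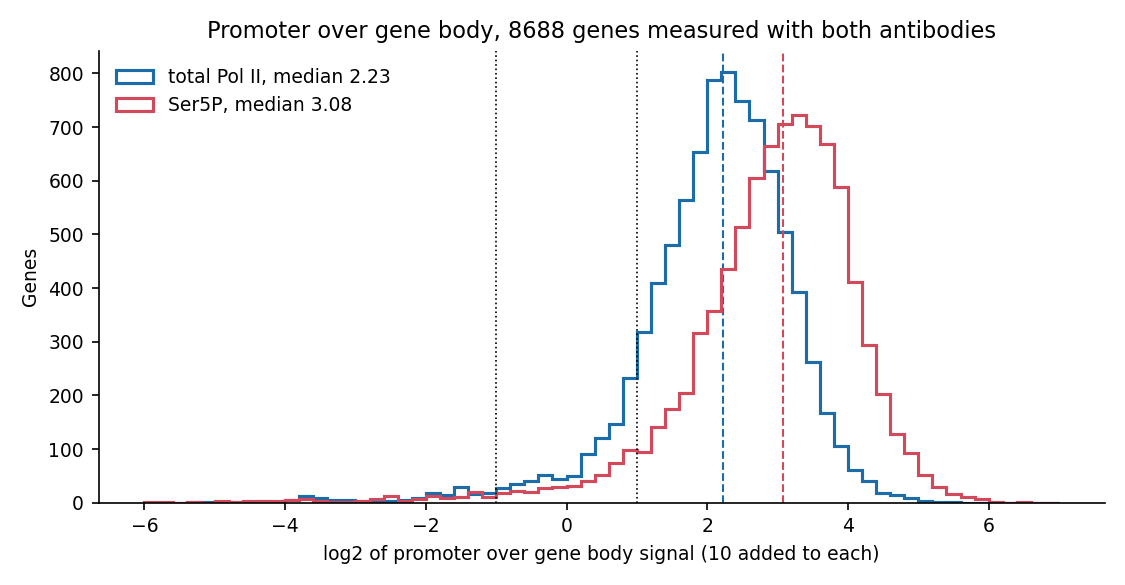
Number of genes by log2 of promoter over gene body signal, for total Pol II and Ser5P in SCR fibroblasts. Dashed lines are the medians, 3.08 for Ser5P and 2.23 for total Pol II, and dotted lines mark 2-fold in either direction, with the body-rich tail on the left holding few genes.

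The filter shaped these shares. With no signal filter 40.2% of 22403 genes were promoter-loaded, and 70.4% of 12388 with a filter at the 95th percentile of the smell receptor genes. A gene with a quiet body could enter only through its promoter, so part of the promoter-loaded share was set by the filter. Among the 1540 genes with a body signal of 100 or more with both antibodies, which entered whatever their promoter held, 52.7% were promoter-loaded (812 genes) and 6.95% body-rich (107). Near the thresholds, 170 promoter-loaded genes had a smaller log2 ratio under 1.1, and 127 genes missed at 0.9 to 1. For the body-rich class these numbers were 7 just inside and 4 just outside.

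**Figure D2:**
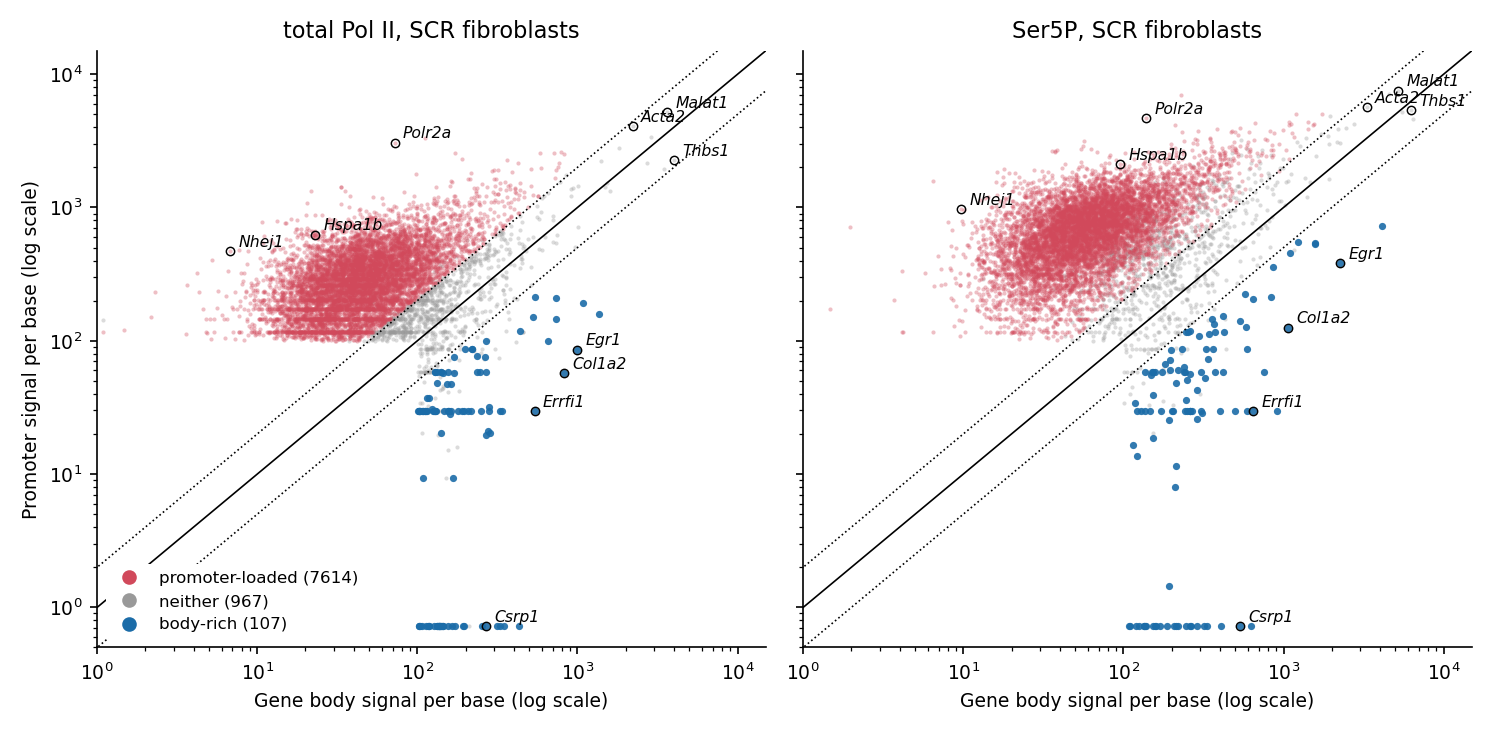
Promoter against gene body signal per base in SCR fibroblasts, total Pol II on the left and Ser5P on the right, both axes logarithmic, 1 point a gene. The solid line is equality and the dotted lines 2-fold; Polr2a stands at 3068.00 against 72.15 with total Pol II, while Csrp1 has no promoter coverage in either library and lies at the bottom.

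The most promoter-loaded genes included parts of the transcription machinery itself. Polr2a, the largest subunit of Pol II and the protein both antibodies recognise, had a promoter signal of 3068.00 and a body signal of 72.15 for total Pol II and, for Ser5P, 4668.35 and 138.26. Its promoter was 42.5-fold above its body with total Pol II (exact 95% Clopper-Pearson interval of the reads 33.1 to 54.2) and 33.8-fold with Ser5P (27.9 to 40.8). It was the only gene among the 8 strongest promoters that also ranked among the 12 highest ratios. Intervals given here cover counting error only. Taf13, a subunit of the TFIID complex that binds core promoters, had 1320.52 at the promoter and 35.50 over the body for total Pol II and, for Ser5P, 2708.84 and 38.40. That is a ratio of 37.2 (24.1 to 60.1) and 70.5 (48.8 to 106). Polr3b, a subunit of RNA polymerase III, led its list next to Polr2a with 605.81 against 23.00 and 1296.72 against 26.45, 26.3-fold and 49.0-fold.

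The highest genes, ranked by the smaller of their 2 log2 ratios, had varied roles. Hn1 held 1422.21 and 33.15 for total Pol II and, for Ser5P, 3132.18 and 56.42. Nhej1, a factor of DNA end joining, held 468.06 and 6.74 with total Pol II, 69.4-fold (37.8 to 116), and 977.95 and 9.70 with Ser5P, 101-fold (67.6 to 147). Its body signal lay near that of the smell receptors, so this promoter carried signal with little over the body. Trpm8, a cold-sensing channel known from sensory neurons, showed the same with 609.42 and 11, and 962.81 and 10.16, 55.4-fold and 94.8-fold.

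Also among the 12 highest were Ascc1, Mttp, Ddrgk1, Kiss1r, Cnbd2 and Fdxr. Mttp loads lipid onto lipoproteins, Fdxr passes electrons to mitochondrial cytochromes, and Kiss1r is the kisspeptin receptor. Their total Pol II folds lay between 38.1 (Cnbd2) and 62.8 (Kiss1r). Kiss1r had 481.04 at the promoter and 7.66 over the body for total Pol II and, for Ser5P, 711.11 and 1.95, where the body rested on about 1 read. Mttp and Kiss1r have a start on the opposite strand within 1000 bases upstream, so signal at these promoters can belong to either gene.

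The body-rich class had few promoter reads. Of its 107 genes, 45 had no promoter coverage in at least 1 library, 12 of them in both libraries, and 12 other genes of the class had at least 3 promoter reads in both. Those 12, looked at after their values were seen, included Egr1, Egr2, Hes1, Gas5, Amotl2, Cd63, Htra2, Ypel4 and 3 predicted genes. Of the genes without promoter coverage, 29 had a body less than 2-fold above the signal of 3 reads in a library concerned, so for these a 2-fold difference is not shown beyond counting error. The counting intervals of many other genes of the class included equality with at least 1 antibody. Ypel4 is 1 of them, with a body 0.847 to 12.6-fold (total Pol II) and 0.812 to 7.94-fold (Ser5P) above the promoter. Cd63 is another, with 0.865 to 12.4-fold for total Pol II.

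Egr1, an immediate early transcription factor induced by growth factors, had 85.82 at the promoter and 999.24 over the body for total Pol II and, for Ser5P, 381.52 and 2252.50. The body stood 11.6-fold (3.92 to 56.1) and 5.90-fold (3.48 to 11.3) above the promoter. Egr2, its close relative, had 98.80 and 269.77, and 139.91 and 532.71. Hes1, the Notch target and repressor, had 119.00 and 437.21, and 357.00 and 854.75, which puts the body 3.67-fold (1.43 to 14.2) and 2.39-fold (1.39 to 4.86) above the promoter.

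Gas5, a noncoding host of small nucleolar RNAs, had 193.28 at the promoter and 1085.77 over the body for total Pol II and, for Ser5P, 532.25 and 1565.94. Its annotation holds 2 starts 565 bases apart and another gene's start inside it. Amotl2, which restrains YAP, had 212.75 and 540.18, and 552.44 and 1231.36, with bodies 2.54-fold (1.29 to 6.68) and 2.23-fold (1.43 to 3.73) higher. Col1a2, a chain of type I collagen, had 56.98 (2 reads) and 824.44 with total Pol II, and 125.49 (4 reads) and 1059.49 with Ser5P. Its partner chain Col1a1 was promoter-loaded, with 1958.07 against 515.94 and 4417.37 against 1424.08. Fbn1, the fibrillin gene, had 29.57 (1 read) against 155.03 and 58.42 (2 reads) against 152.78. Its body was 5.24-fold (0.966 to 212) and 2.62-fold (0.732 to 21.9) above the promoter, so both intervals include equality.

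With predicted gene names left out, the lowest rank belonged to Csrp1, a LIM protein of the actin skeleton, which had no promoter coverage in either library and a body signal of 268.55 with total Pol II and 533.21 with Ser5P. Against a floor of 3 reads at the promoter, its body was at least 3.08-fold and at least 6.11-fold higher. RefSeq gives Csrp1 2 starts 9104 bases apart. Il1rl1, a receptor for interleukin-33, likewise had no promoter coverage, bodies of 117.59 and 137.30, and starts 10059 bases apart. The start that the table used for these genes is not given in the sources used here.

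Masp2, Capn12, Tm4sf1, Ldha, Ctnnb1 and Rbbp6 also had no promoter coverage in either library. Ldha, which makes lactate from pyruvate, had bodies of 131.93 and 263.79, at least 1.51-fold and at least 3.02-fold above the promoter floor. Ctnnb1, the beta-catenin gene, had 118.85 and 158.99, at least 1.36-fold and at least 1.82-fold. Errfi1, an inhibitor of the EGF receptor, had 1 promoter read in each library (29.57) against bodies of 539.14 and 645.00, 18.2-fold (3.34 to 739) and 21.8-fold (4 to 885) higher. Car9, a carbonic anhydrase induced by low oxygen, had no promoter read with total Pol II and 1 with Ser5P, against bodies of 428.92 and 591.20. Rab26 and Rpl3 completed the 12 lowest. Another gene's start lies inside Car9, Errfi1, Capn12 and Rbbp6, so body signal there can belong to either gene. RefSeq gives 2 starts for Errfi1, 1274 bases apart, and 2 for Ldha, 1278 bases apart. Processed copies of Rpl3 and Ldha lie elsewhere in the genome, and how reads with several matches were counted is not given in the sources used here.

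Most of the strongest genes had similar signal in both regions. Among the 8 with the highest promoter signal, Malat1, Acta2, Actb and Thbs1 were in neither class, and Polr2a, Neat1 and Ddit3 were promoter-loaded. Malat1, an abundant nuclear noncoding RNA, had 5219.35 at the promoter and 3645.37 over the body for total Pol II and, for Ser5P, 7545.22 and 5222.50, 1.43-fold and 1.44-fold. Acta2, smooth muscle actin and a sign of contractile fibroblasts, had 4109.41 and 2214.17, and 5634.04 and 3318.66, so its promoter was 1.86-fold (1.56 to 2.19) and 1.70-fold (1.46 to 1.96) above its body.

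Thbs1, an adhesive matrix protein, ranked first by body signal over both antibodies, with 2273.95 at the promoter and 4028.68 over the body for total Pol II and, for Ser5P, 5354.21 and 6283.13. Ctgf and Cyr61, secreted matricellular proteins driven by YAP, had 1955.18 against 3493.37 and 2167.94 against 2712.53 with total Pol II. Their Ser5P values were 4599.11 against 6475.22 for Ctgf and 5194.82 against 5534.81 for Cyr61. In these genes the body was above the promoter by less than 2-fold, 1.79-fold (1.39 to 2.31) for Ctgf and 1.25-fold (0.986 to 1.61) for Cyr61 with total Pol II. Ddit3, the stress factor CHOP, differed from them with a strong promoter and a weaker body, 2548.01 and 579.36, and 4391.40 and 1077.45.

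Gene lists were described by their median and by counts of the classes, beside the same over all 8688 genes. Over all of these, 87.6% were promoter-loaded and 1.23% body-rich. Among those with a body signal of 100 or more with both antibodies, the shares were 52.7% and 6.95%. Of 34 lists with at least 5 measured genes, 17 had medians at least 0.25 from that of all genes with both antibodies and in the same direction, 14 of them lower and 3 higher. Lists with high body signal can be low in the ratio for that reason alone. Several are therefore also given among the 1540 genes with a body signal of 100 or more. The value there is the difference between the list's median and that of these genes. This limit is a floor, so body signals above it can still differ between a list and these genes. Lists given without the value are not set against these 1540 genes in the text.

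The lowest medians were those of actin cytoskeleton genes and of YAP targets, which fibroblasts use to contract and to sense their matrix. Actin cytoskeleton genes and targets of SRF, a factor whose cofactors respond to free actin, had medians of 0.96 with total Pol II and 1.41 with Ser5P over 30 genes. Of these, 12 were promoter-loaded (40.0%), 2 past 4-fold, and 0 body-rich, so most lay in neither class. Tpm4, a tropomyosin, had 260.35 at the promoter and 358.43 over the body for total Pol II and, for Ser5P, 769.52 and 633.26. Tln1, the talin that links integrins to actin, had 749.33 against 183.98 and 2246.55 against 354.13. All 30 had a body signal of 100 or more, where 52.7% of genes were promoter-loaded and 6.95% body-rich. The list still lay 0.14 and 0.53 below the median there. Its median body signals were 345.1 with total Pol II and 622.0 with Ser5P. The highest decile of all genes by body signal had medians of 201.0 and 317.0. A difference beyond body level was not tested. YAP and TEAD targets had medians of 0.89 and 1.65 over 18 genes, 8 promoter-loaded (44.4%) and 2 body-rich, Amotl2 and the kinase gene Lats2. With 12 genes past the body limit the list lay 1.11 and 0.88 below.

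Signalling feedback and inflammatory lists also had medians below those of all genes. Genes that damp MAPK signalling had medians of 1.39 and 1.65 over 9 genes, with 5 promoter-loaded (55.6%) and 1, Errfi1, body-rich. Among them Spry4 had 362.77 at the promoter and 33.05 over the body for total Pol II and, for Ser5P, 1462.60 and 43.47, while Spry2 had 184.63 and 128.45, and 309.40 and 211.33. TGF-beta and BMP pathway genes had medians of 1.73 and 2.57 over 21 genes, 14 promoter-loaded (66.7%) and 0 body-rich. NF-kB and inflammatory genes had 1.79 and 2.04 over 16, 11 promoter-loaded (68.8%) and 1, Il1rl1, body-rich. Ptgs2, the inducible cyclooxygenase, had 1414.28 against 1476.33 and 3048.52 against 2265.30. Past the body limit, with 6 genes each, the MAPK list lay 0.50 and 1.19 below the median, the TGF-beta list 1.06 and 0.73 and the NF-kB list 0.36 and 1.05.

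Several other lists with low medians lay nearer to those of all genes, or above them, past the body limit. Immediate early genes had medians of 1.66 and 1.77 over 22 genes, 17 promoter-loaded and 3 body-rich (Egr1, Egr2 and Jund). Fos was promoter-loaded, with 817.84 against 115.37 and 2291.98 against 345.41, and so was Myc, with 779.62 against 251.48 and 1413.56 against 458.99. Past the body limit (16 genes) the list lay 0.41 above the median with total Pol II and 0.32 below with Ser5P. Fibroblast and mesenchymal markers had medians of 1.57 and 1.91 over 30 genes, with 22 promoter-loaded and 2, Col1a2 and Fbn1, body-rich. Their difference past the body limit (24 genes) was 0.18 and -0.05.

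Cytosolic ribosomal protein genes had medians of 1.54 and 2.19 over 69 genes, with 51 promoter-loaded and 2, Rpl3 and Rps10, body-rich. They are short, with a median length of 3572 bases, and their median body signals of 195.6 with total Pol II and 381.9 with Ser5P were high. Past the body limit, 66 of them lay 0.40 and 0.22 above the median. Rps9 had 1818.87 at the promoter and 216.82 over the body, and 3704.10 and 497.17 with Ser5P. Interferon and antiviral genes (medians 1.95 and 2.60 over 28 genes, 22 promoter-loaded, 0 body-rich) also turned to 0.84 and 0.48 above, with 12 genes. Targets of p53 (1.68 and 2.33 over 22 genes) lay 0.26 above and 0.12 below with 15. Histone, cell cycle and developmental factor lists had too few genes past the limit for a value.

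**Figure D3:**
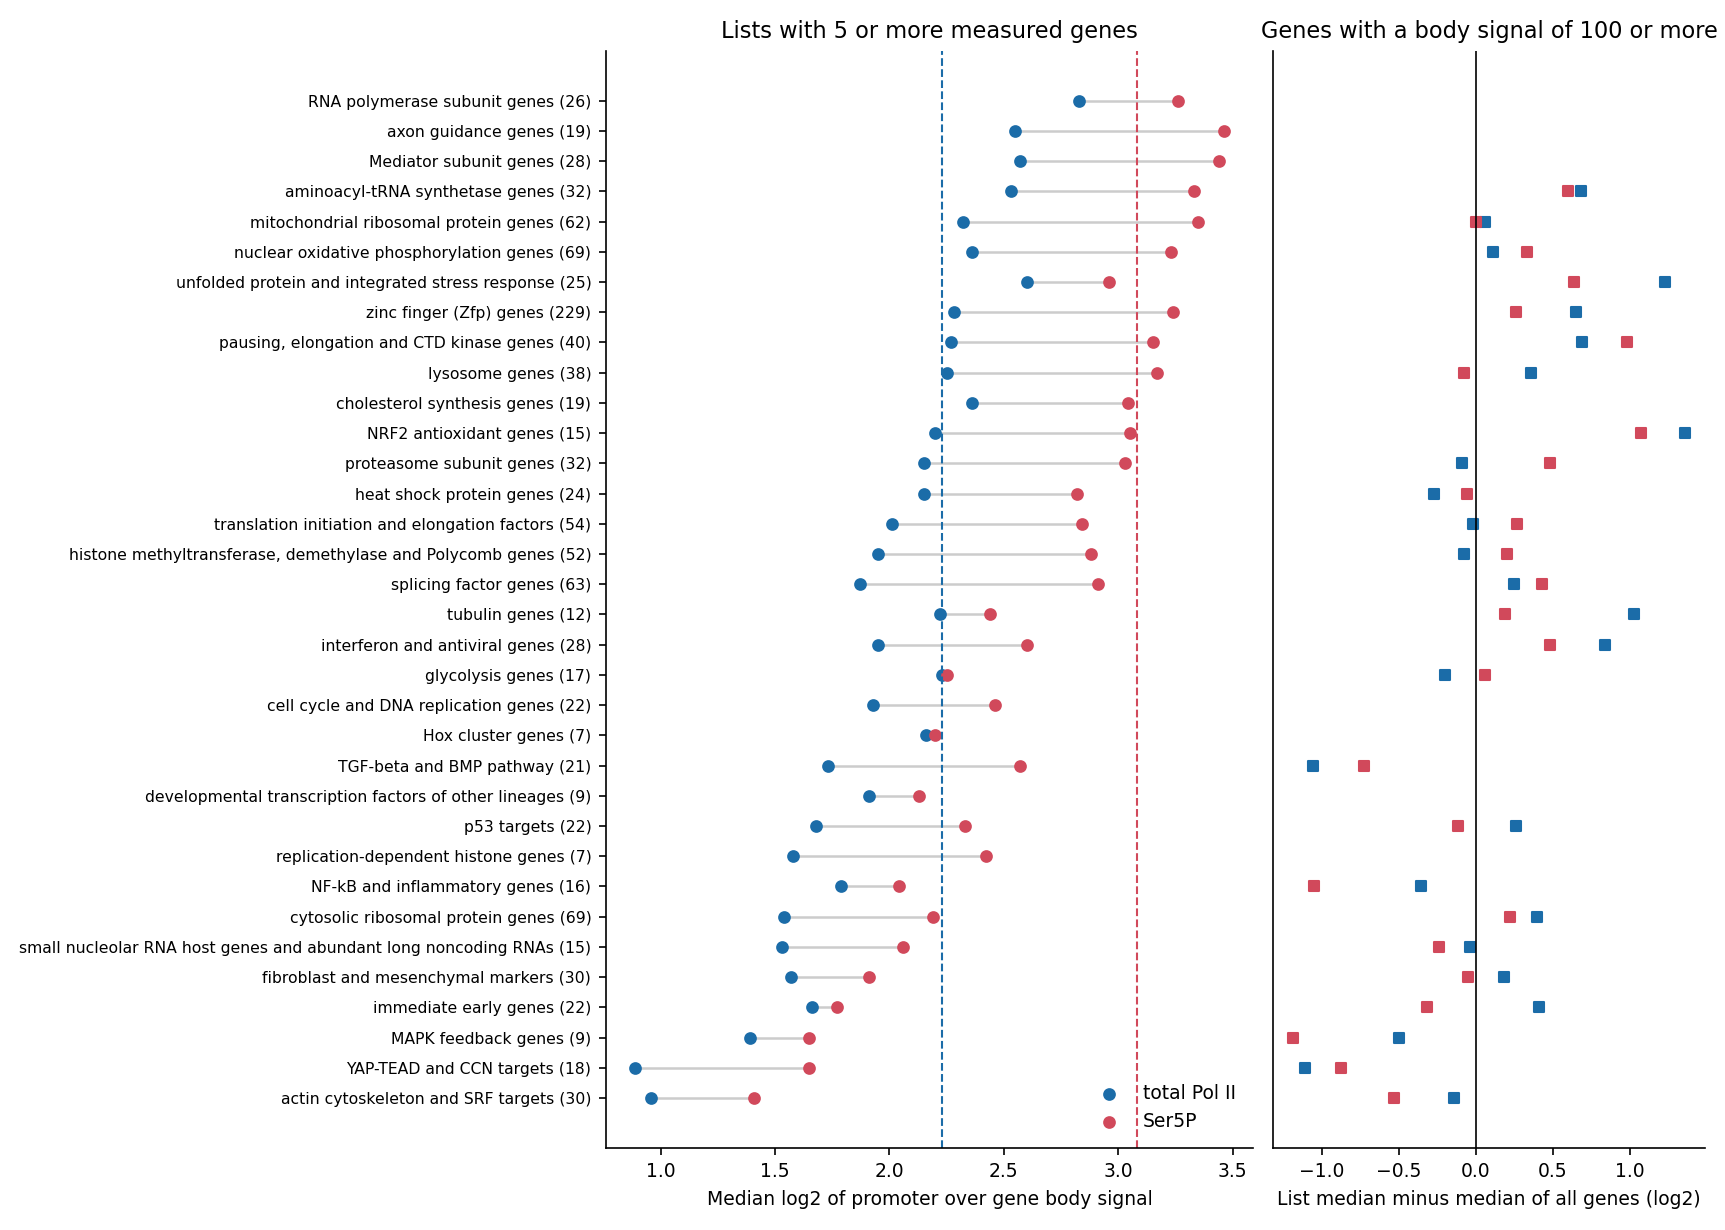
Median log2 of promoter over gene body signal for lists with at least 5 measured genes (number in brackets), with dashed lines at the medians of all genes, 2.23 for total Pol II and 3.08 for Ser5P; squares on the right give the list minus all genes among genes with a body signal of 100 or more. The list of unfolded protein and stress response genes lies 1.23 and 0.64 to the right there, and YAP-TEAD targets 1.11 and 0.88 to the left.

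Genes for polymerase, Mediator and mitochondrial complexes had promoter-loaded shares of 89.9% to 95.2%, near the 87.6% of all genes, and are described by their medians. RNA polymerase subunit genes had medians of 2.83 and 3.26 over 26 genes, 24 promoter-loaded and 19 past 4-fold, and Mediator subunit genes 2.57 and 3.44 over 28, 26 promoter-loaded and 19 past 4-fold. Med27 had 325.98 at the promoter and 17.35 over the body for total Pol II and, for Ser5P, 535.13 and 17.58. Aminoacyl-tRNA synthetase genes had medians of 2.53 and 3.33 over 32, of which 30 were promoter-loaded. Nars2, which charges mitochondrial asparagine tRNA, had 433.44 and 28.15, and 1202.25 and 24.12. Mitochondrial ribosomal protein genes had higher medians than the cytosolic ones, 2.32 and 3.35 over 62, with 59 promoter-loaded and 0 body-rich. Their median body signals were lower, 46.09 with total Pol II and 64.12 with Ser5P, and their median length was 7805 bases. These 2 ribosomal lists are not compared here at like body signal. Oxidative phosphorylation genes had 2.36 and 3.23 over 69, 62 promoter-loaded and 0 body-rich.

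Zinc finger genes, the largest list, had medians of 2.28 and 3.24 over 229 genes, close to all genes, with 211 promoter-loaded and 1, Zfp503, body-rich. Genes for pausing, elongation and CTD kinases had 2.27 and 3.15 over 40, with 36 promoter-loaded. Within it, Ctr9, a subunit of the PAF complex, had 582.01 against 31.95 and 1249.12 against 38.30, while Brd2, a bromodomain protein, had 300.02 against 357.00 and 739.95 against 762.93. Hexim1, which holds P-TEFb inactive, had 1435.19 against 131.26 and 2795.38 against 199.46.

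Stress genes divided. The unfolded protein and stress response list had medians of 2.60 and 2.96 over 25 genes, 24 promoter-loaded and 21 past 4-fold, against 58.9% past 4-fold over all genes. Hyou1, a chaperone of the endoplasmic reticulum, had 420.46 at the promoter and 29.01 over the body, and 1171.23 and 74.61 with Ser5P. Ern1, the stress sensor IRE1, had 328.87 and 27.53, and 897.18 and 27.93. Their exception was Atf4, the translationally controlled stress factor, with 554.60 against 706.58 and 1631.36 against 1915.44. Among genes past the body limit (11) the list lay 1.23 and 0.64 above the median.

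Heat shock protein genes spanned both ends. Hspa1a, an inducible HSP70 gene, whose counterpart in Drosophila is the classic case of a paused polymerase, had 539.46 at the promoter and 10.81 over the body for total Pol II and, for Ser5P, 1609.00 and 94.40. Hspa1b had 626.73 and 22.93, and 2115.29 and 95.26, so the promoter was 27.3-fold (10.9 to 83.9) and 22.2-fold (13.9 to 36.5) above the body. These genes are near-identical copies, so the split of reads between them is uncertain. Hsp90aa1, the inducible HSP90, was body-rich instead, with no promoter coverage and a body of 142.09 with total Pol II, and 56.25 against 259.46 with Ser5P. The list's medians were 2.15 and 2.82 over 24 genes, with 17 promoter-loaded and 1 body-rich.

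Metabolic lists lay on both sides of the 87.6% of all genes. All 15 measured NRF2 antioxidant genes were promoter-loaded, with medians of 2.20 and 3.05 (1.36 and 1.07 above the median with 6 genes past the body limit), and 17 of 19 cholesterol synthesis genes, with 2.36 and 3.04. Nqo1, a quinone reductase, had 123.33 against 10.39 and 551.00 against 14.93. Glycolysis genes had 2.23 and 2.25 over 17, with 12 promoter-loaded (70.6%) and 2 body-rich. Hk2, which phosphorylates glucose, had 752.21 against 47.67 and 1249.12 against 85.09, while Aldoa, a later enzyme of the pathway, was body-rich with 19.47 against 267.88 and 126.21 against 582.17.

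Most Hox genes and developmental transcription factors of other lineages did not pass the filter with both antibodies. Some Hox genes passed with Ser5P alone, such as Hoxa2 with 404.59 at the Ser5P promoter but 58.42 and 94.42 with total Pol II. Measured were 7 of 39 Hox genes and 9 of 127 developmental transcription factors of other lineages, against 8688 of all 36172 genes. The medians of these 2 lists describe few members. Axon guidance genes, of which 19 of 68 were measured, had medians of 2.55 and 3.46 with 18 promoter-loaded. Epha2, an ephrin receptor, had 936.84 at the promoter and 47.53 over the body, and 1784.26 and 112.79 with Ser5P. Epha1 was the body-rich exception, with 58.42 against 245.25 and 29.57 against 399.55.

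Splicing factor genes had medians of 1.87 and 2.91 over 63, 49 promoter-loaded and 3 body-rich. Hnrnpk and Hnrnpf, which bind nascent RNA, were among those 3, Hnrnpk with 29.57 at the promoter and 328.90 over the body for total Pol II and, for Ser5P, 134.14 and 369.18. Past the body limit (31 genes) the list lay 0.25 and 0.43 above the median. Promoter-loaded were 90.6% of proteasome, 92.1% of lysosome, 84.6% of histone methylation and 75.9% of translation factor genes, against 87.6% of all genes. None of these lists held a body-rich gene, which are 1.23% of all. Small nucleolar RNA hosts and long noncoding RNAs had 9 of 15 promoter-loaded and 2 body-rich, Gas5 and Hotairm1, while Xist, which coats the inactive X chromosome, had 627.45 against 78.57 and 1605.40 against 77.01.

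The median ratio was lower at higher body signal and, up to the ninth decile, higher at higher promoter signal. Genes were ranked by the signal of the other antibody, so that counting noise in a value did not enter both sides. Both antibodies shared 1 chromatin pool and the same annotation, so errors common to both libraries still could. The filter still shapes the trend, since genes with body signals under 100 entered through their promoters. From the lowest to the highest decile of body signal, the median log2 ratio ran 2.82 to 1.05 for total Pol II and 3.71 to 1.76 for Ser5P, lower at every step. From the lowest to the highest decile of promoter signal, it stood at 1.57 and 2.49 with total Pol II, with the peak of 2.56 in the ninth decile, and at 2.04 and 3.21 with Ser5P, with the peak of 3.41 there.

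Short genes had low ratios. Among genes under 2 kb, left out of the classes, the median was 1.13 with total Pol II and 1.32 with Ser5P over 517 genes, and 7.16% were body-rich. From 2 to 5 kb it was 1.77 and 2.30, and from 20 to 50 kb 2.36 and 3.29. Over 150 kb, total Pol II stood at 2.23 and Ser5P at 3.48, the highest of the Ser5P medians. Body-rich genes had a median length of 7833 bases and promoter-loaded genes one of 22066. Genes with a body signal of 100 or more lay between them at 9903.

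**Figure D4:**
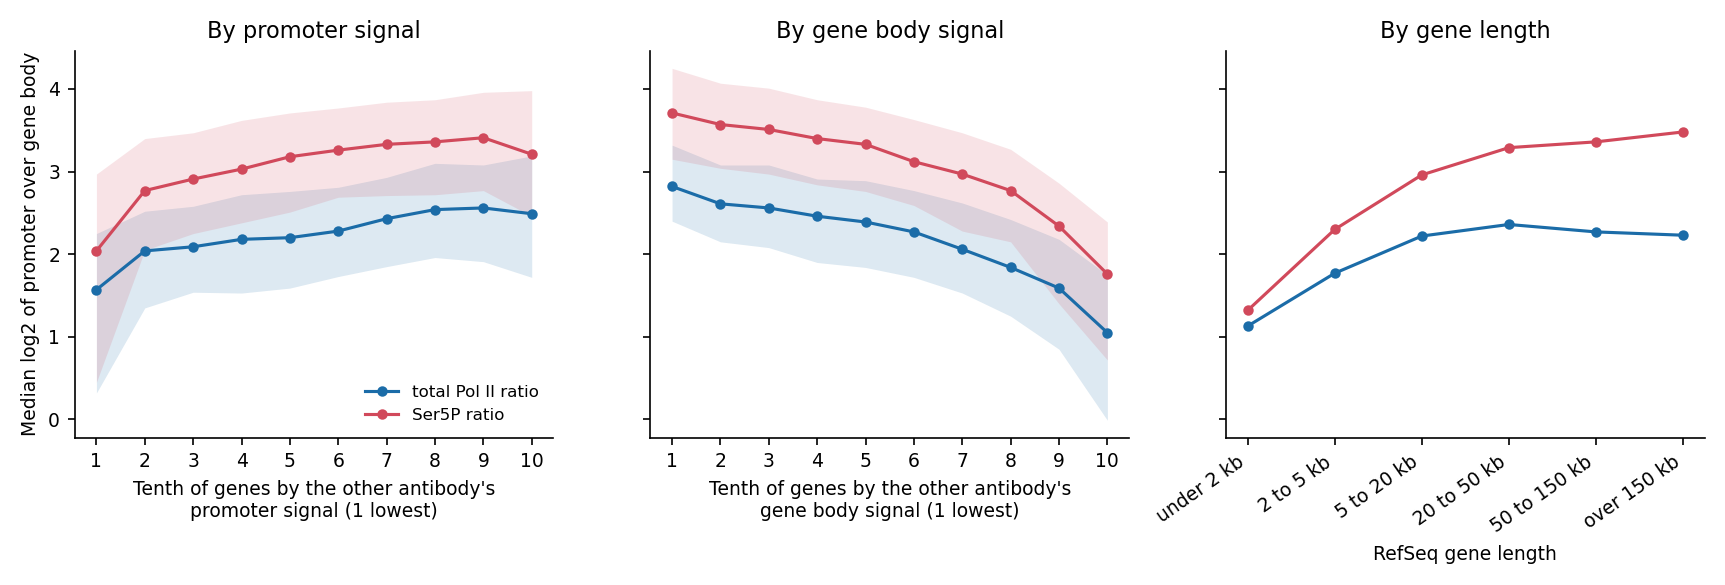
Median log2 of promoter over gene body signal (points) with quartiles (shaded) by decile of the other antibody's promoter signal (left) and gene body signal (middle), and median by RefSeq gene length (right). With body signal the total Pol II median falls to 1.05 and the Ser5P median to 1.76 in the highest decile, while short genes stand at 1.13 and 1.32.

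The annotation around the classes differed. Of body-rich genes with an entry in the promoter table, 28.2% had several starts (24 of 85), against 18.1% of promoter-loaded genes and 20.2% of genes with a body signal of 100 or more. Starts over 1000 bases apart were found in 22.4% of body-rich genes, 7.65% of promoter-loaded genes and 9.46% of those with high body signal. Another gene's start lay inside 25.9% of body-rich genes and 19.5% of promoter-loaded genes. A start on the opposite strand within 1000 bases upstream was present for 12.9% of body-rich genes and 22.8% of promoter-loaded genes. Genes with 1 start and no other start inside made up 58.8% of body-rich genes, 67.4% of promoter-loaded genes and 67.0% of those with high body signal. Among body-rich genes named above, starts lay over 1000 bases apart in Aldoa, Egr2, Lats2 and Hnrnpf as well as in Csrp1, Il1rl1, Errfi1 and Ldha. Another gene's start lay inside Egr2, Lats2, Hnrnpf and Hnrnpk, among others. The part of alternative starts in the classes was not tested.

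Promoter sequence differed between the classes among genes with 1 start, over 250 bases before to 50 after it. Promoters with few CpG pairs (observed over expected under 0.5) made up 47.5% of the body-rich class (29 of 61), 11.1% of the promoter-loaded class and 17.1% of genes with a body signal of 100 or more. Over all 5739 measured genes with 1 start the share was 12.4%, close to the promoter-loaded class, and over all 22862 promoters with 1 start 58.4%. In the other direction, 4.09% of measured genes with such promoters were body-rich, against 0.636% of the rest. Their median ratios were 2.15 and 2.89, and those of the rest 2.28 and 3.17.

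Motifs were searched on both strands, except TATAAA near the start, which was read on the gene's strand. The ETS motif CCGGAAG occurred in 8.2% of body-rich promoters (5), 23.1% of promoter-loaded ones, 18.6% of those with high body signal and 9.12% of all promoters. GGGCGG occurred in 52.5%, 69.3%, 67.9% and 35.2% of the same sets, and GCGCATGCG, a form of the NRF1 motif, in 1.64%, 5.03%, 3.58% and 1.77%. CCAAT hardly differed, at 41%, 41.2%, 38.2% and 38.2%. TGACTCA, the AP-1 motif, was present in 6.56% of body-rich promoters (4) and 2.79% of promoter-loaded ones, and CACGTG, an E-box, in 8.2% and 10.9%. With 61 body-rich promoters, shares resting on a few genes are imprecise.

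TATAAA starting 45 to 20 bases before the start was found in 64 measured genes with 1 start. Their medians were 2.41 and 2.97, against 2.27 and 3.15 for the 5675 without it. Their signals were higher in both regions, with medians of 434.9 at the promoter and 72.44 over the body with total Pol II, against 265.4 and 46.96 without it. It occurred in 4.92% of body-rich promoters (3, those of Cryba1, H3f3b and Krt10), 1.04% of promoter-loaded ones and 2.76% of those with high body signal. So TATAAA stood before Polr2a at the top of the ratios and before Cyr61 near equality.

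**Figure D5:**
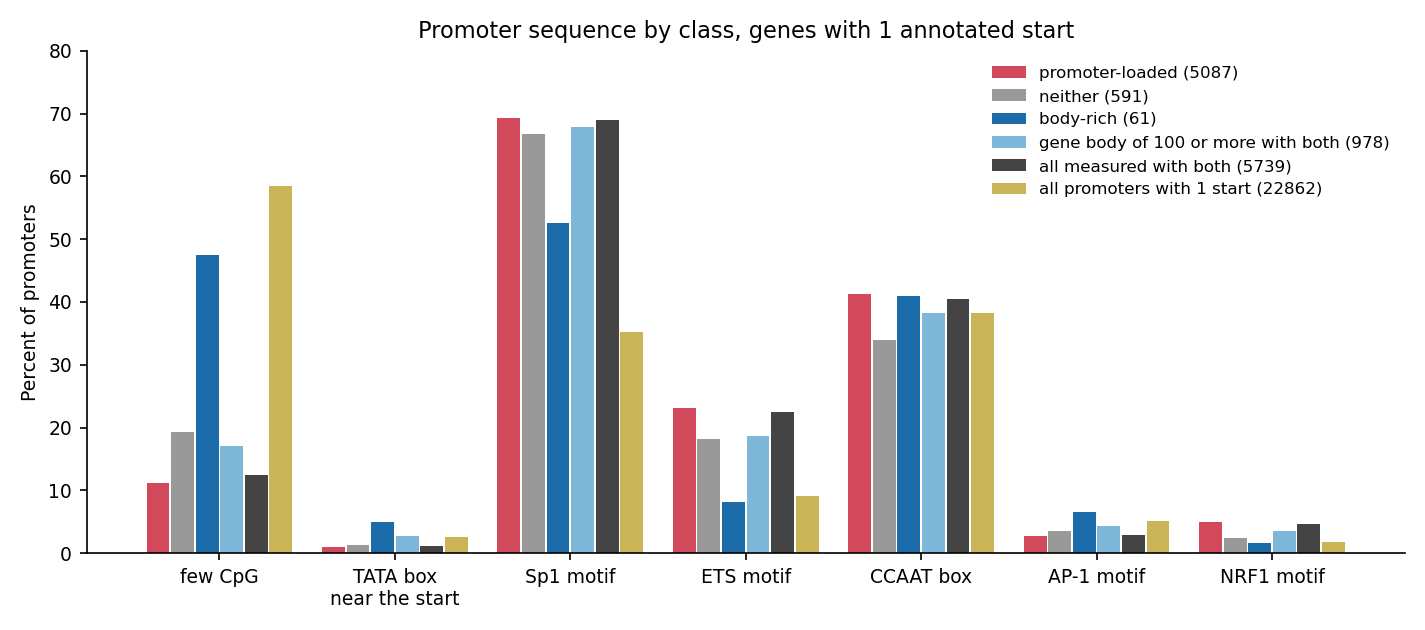
Percent of promoters with few CpG pairs, TATAAA near the start or a motif, by class, for genes with 1 annotated start (numbers in brackets). Few-CpG promoters make up 47.5% of the body-rich class, 11.1% of the promoter-loaded class and 12.4% of all measured genes. The ETS motif is found in 8.2%, 23.1% and 22.4%.

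The classes were also read in the libraries of RPAP1-depleted fibroblasts (shRPAP1), again 1 per antibody and made in parallel. The titles and treatments of these libraries name the depletion, while their descriptions name SCR, and the titles were followed. Of the 7614 promoter-loaded genes, 4748 were measured there and 4535 (95.5%) were promoter-loaded, with 0 body-rich, against 89.7% promoter-loaded of all 5217 genes measured in both. Of the 107 body-rich genes, 33 were measured there, 23 of them body-rich and 0 promoter-loaded. Of all 5217 genes measured in both, 31 were body-rich there. Over these 5217 genes the median log2 ratio was 2.01 in shRPAP1 and 2.40 in SCR for total Pol II. For Ser5P it was 2.95 in shRPAP1 and 3.29 in SCR. These are values of single libraries, and the filter kept genes with signal in each.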

How the data were processed

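Pol II ChIP-seq of SCR fibroblasts, 1 library per antibody, was described without tests. The authors deposited a table of read coverage (signal) per gene, in a promoter window and along the gene body, on GRCm38/mm10. Per the submitters' processing notes MACS2 2.0.10.20130712, bedtools 2.23.0, SAMtools 0.1.16 and FastQC were among the tools. Not given in the sources used here are the aligner, the windows, filters, scaling and the counting of reads with several matches. Promoter values were multiples of 0.7212, within 0.005, and clustered at steps of 40 multiples, taken as 1 read of 40 bases worth 28.85 units. The lowest body values of 2005 genes placed the body start a median of 300 bases downstream, if the promoter window is assumed to run 30 bases before to 300 after the start (331 bases), so both regions are taken as signal per base on the same scale. Values of libraries were not rescaled.

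After dropping 58 exact repeats, 36172 genes remained, and 28839 were matched to a RefSeq GRCm38.p6 length (27362 by symbol and 1477 by an older symbol). Genes were measured at a signal of 100 or more in the promoter or body and a length of 2000 bases or more, leaving out mitochondrial genes. The measure was log2((promoter + 10)/(body + 10)); plain folds are ratios of the deposited values. A promoter with no reads was set to a floor of 3 reads (87.3 units) for a fold. Intervals are 95% Clopper-Pearson intervals on read equivalents, which cover counting error only, since reads are not independent molecules. Total library depth is unknown.

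The named genes were the 12 highest and 12 lowest ratios with at least 10 read equivalents in the higher region, ranked by the smaller log2 ratio, the 8 strongest promoters and bodies (predicted gene names, smell receptors and mitochondrial genes left out of these), and the 2 highest and 2 lowest of each list with at least 5 measured genes. Fos, Myc, Col1a1, Hexim1, Hes1, Egr2, Cd63, Htra2, Ypel4, Cryba1, H3f3b and Krt10 fell outside this rule and were chosen after their values were seen. The members and the 44 lists were chosen with earlier results of these data known. Some genes that the rule names are not reported here. Input and RNA libraries were not analysed here. Python 3.11.15, pandas 2.3.3, numpy 2.4.6, scipy 1.17.1 and matplotlib 3.10.9 were used, and the classing was tested on simulated data.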

Additional observations from a re-analysis of the deposited data

How the results depend on the processing

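No paired analysis was possible because each antibody has 1 SCR library. Medians with total Pol II and Ser5P were 2.46 and 3.16 at a pseudocount of 1, 1.86 and 2.58 at 30, 0.72 and 1.27 with no signal filter, 2.49 and 3.11 with a filter of 200, 1.80 and 2.54 with a filter at the smell receptors' 95th percentile, 2.40 and 3.07 with background subtracted, 2.13 and 2.77 with all lengths and 2.27 and 3.02 from 5000 bases. Further settings were chosen after seeing the data: genes with 1 annotated start gave 2.26 and 2.99, genes with no other start inside 2.25 and 2.97, and a filter on the body alone 1.08 and 2.06. The setting with all lengths also took in genes without a matched RefSeq length. Promoter-loaded genes numbered 5000 with no other start inside and 812 with the body filter. Body-rich genes numbered 1511 with no signal filter, 33 with a filter of 200, 556 with the receptor filter, 199 with all lengths, 61 with 1 start, 63 with no other start inside, 42 at 4-fold, and 192 with total Pol II or 246 with Ser5P alone. The cause was not tested.

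Of 582 list values under these settings, 109 had another sign of the list minus all genes than reported. Of these, 38 belonged to lists at least 0.25 from all genes with both antibodies and are given here, and 154 other values moved by over 0.25. With no signal filter the 38 included, for total Pol II and Ser5P, fibroblast markers 0.56 and 0.67, actin and SRF 0.23 and 0.02, TGF-beta 0.46 and 0.55, immediate early genes 0.85 and 0.37, NF-kB 0.71 and 0.53, interferon 1.22 and 1.26, p53 0.74 and 0.79, ribosomal proteins 0.80 and 0.91, histones 0.85 and 1.15, noncoding hosts 0.01 and 0.59, cell cycle 0.68 and 1.13, axon guidance -0.11 and -0.23, and, for 1 antibody, YAP-TEAD 0.16 (total Pol II) and MAPK feedback 0.21 (Ser5P). With the receptor filter they were axon guidance -0.33 and -0.51 and interferon 0.11 (total Pol II). Aminoacyl-tRNA synthetases had -0.04 with a filter of 200 (Ser5P) and -0.03 with 1 start (total Pol II). With the body filter they were interferon 0.84 and 0.48, ribosomal proteins 0.40 and 0.22, and for total Pol II fibroblast markers 0.18, immediate early genes 0.41 and p53 0.26.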
